A study of Bos taurus with 30 samples.

Results

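The genes described here encode proteases and protease inhibitors that act on the extracellular matrix: the matrix metalloproteinases MMP1, MMP2, MMP9, MMP14 and MMP19, their tissue inhibitors TIMP1, TIMP2 and TIMP3, the urokinase plasminogen activator PLAU and its receptor PLAUR. They were chosen by gene symbol, with earlier results of these data known. All 10 were on the array, represented by 16 of 24016 probe sets tested and 10 of 9155 genes with a single symbol. RNA came from whole corpus luteum tissue of 30 Angus crossbred heifers, with 1 Affymetrix GeneChip Bovine Genome Array for each animal. Glands of day 11 of the estrous cycle were collected 0, 4 or 24 h after treatment, and glands of day 4 likewise, which made 6 groups of 5 animals. The animals collected at 4 and 24 h had received prostaglandin F2α (PGF2α). The labels call the 0 h animals controls and name saline as the control injection, and no saline group at 4 or 24 h was used here. A difference from 0 h is called a response to PGF2α below. It also holds the time since injection and the further age of the gland, and these cannot be told apart from PGF2α.

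The corpus luteum is the gland that forms from the ovulated follicle and secretes progesterone. It is rebuilt and vascularised quickly after ovulation, and PGF2α makes the mature gland regress whereas the early gland resists it. Matrix metalloproteinases are secreted or displayed as inactive precursors and cut collagens and other matrix proteins once their propeptide is removed. Plasmin, which urokinase makes from plasminogen at its receptor on the cell surface, can remove that propeptide, and TIMPs block the active site of the mature enzymes.

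Values are log2 signals made by the authors with RMA, so that a difference of 1 is a doubling of signal on the array. Each gene is given by its probe set with the highest mean, and its other probe sets are described beside it. Differences are from a limma fit to all 30 arrays and carry the standard error (SE) of that fit. A gene is said to rise, fall, or be higher or lower where its p value was under 0.05 after Benjamini-Hochberg adjustment across the 24016 probe sets. Levels are not compared between genes, since probe sets differ in how brightly they bind. The lower quartile of all signals was 4.08, their median 6.08 and their upper quartile 8.01.

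Array medians lay between 6.01 and 6.16, and arrays of a group correlated at 0.978 to 0.994 across probe sets. Day 11, 4 h replicate 1 stood apart in the control probe sets for EF1A, with a 3′ minus 5′ difference of -1.40. On the first 2 principal components day 4, 24 h replicate 1 lay nearest to the day 4, 0 h arrays and day 4, 24 h replicate 4 nearest to the day 11, 0 h arrays. Luteal cell markers were bright everywhere: the mean over 8 of them lay between 11.05 and 12.67 in single arrays.

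Most of these genes rose after PGF2α in the day 11 gland. They were chosen with earlier results of these data known, so the counts below describe them and do not test them as a set. The responses of 2 of the 10 genes at 4 h and of 7 at 24 h differed between the days. Of all genes, 0.939% had a larger and 0.459% a smaller response on day 11 at 4 h, and 14.8% a larger and 15.0% a smaller response at 24 h. At 4 h on day 11, 7 of the 10 genes rose and 0 fell, where 10.1% of all genes rose and 13.1% fell. The median difference of the 10 genes was 0.81, against -0.04 over all genes. On day 4 at 4 h, 3 of the 10 rose (MMP1, TIMP3 and PLAUR) and 0 fell, where 3.29% of all genes rose and 1.99% fell, and the medians were 0.36 and -0.02. With array quality weights PLAU (0.64, adjusted p = 0.011) and MMP9 (1.13, adjusted p = 0.024) rose there as well, which made 5 of 10. Those weights also took the calls over all 24016 probe sets from 1018 to 1981. Since the tissue was analysed whole, a change in the number of cells of a type and a change in RNA per cell cannot be told apart. This holds for rises and falls in all of these values.

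After 24 h on day 11, 9 of the 10 rose, all but TIMP2, where 17.9% of all genes rose and 20.0% fell. The median was 1.27 for the 10 genes and -0.01 for all genes. On day 4, TIMP2 rose and PLAU fell at 24 h, where 3.03% of all genes rose and 4.73% fell. The 4 h and 24 h comparisons of a day share their 0 h arrays. Without both day 11, 4 h replicate 1 and day 4, 24 h replicate 1, the counts called were 7 and 9 on day 11 at 4 and 24 h and 3 and 3 on day 4. Day 4, 24 h replicate 4, which lay nearest to another group, was kept there. When it alone was dropped, the 24 h fall of PLAU on day 4 did not pass (limma adjusted p = 0.18).

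**Figure D1:**
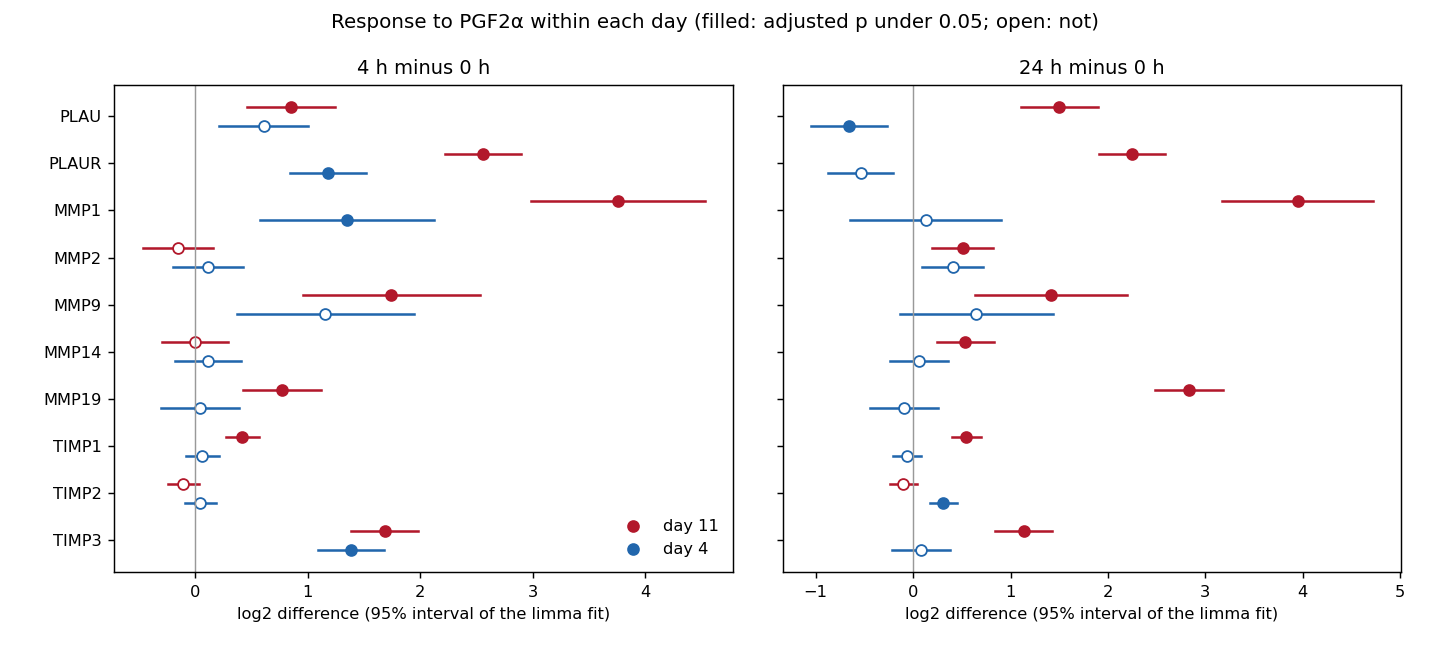
Log2 difference of each gene at 4 h and at 24 h against 0 h, with its 95% interval, for day 11 (red) and day 4 (blue); filled points passed the test and open points did not. At 24 h the day 11 points lie above 0 for 9 of the 10 genes, and the day 4 points lie between -0.66 for PLAU, which passed, and 0.65 for MMP9, which did not.

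The urokinase receptor PLAUR (Entrez Gene 281983), which holds urokinase at the cell surface, rose on both days within 4 h and was still above 0 h at 24 h on day 11. On day 11 its signals were 7.63, 8.14, 7.71, 7.31 and 7.67 at 0 h, 10.50, 10.11, 10.22, 10.42 and 10.004 at 4 h, and 10.48, 9.53, 9.997, 9.90 and 9.78 at 24 h. All 10 arrays taken after PGF2α lay above all 5 of the 0 h arrays. On day 4 the signals were 9.45, 8.81, 9.04, 9.47 and 9.23 at 0 h, 10.65, 10.15, 10.50, 10.24 and 10.38 at 4 h, and 8.97, 8.50, 8.68, 8.31 and 8.86 at 24 h. There the 4 h arrays lay above both other groups, and the 24 h arrays lay within or below the range of the 0 h arrays.

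PLAUR rose by 2.56 ± 0.16 (SE), or 5.88-fold, at 4 h on day 11 (adjusted p = 5.3e-12) and by 1.18 ± 0.16 (SE), or 2.27-fold, at 4 h on day 4 (adjusted p = 3.4e-05). The response at 4 h was larger on day 11 than on day 4 by 1.37 ± 0.23 (SE; adjusted p = 0.0015). The 4 h means were 10.25 ± 0.21 on day 11 and 10.39 ± 0.20 on day 4 (SD, n = 5 each), a difference of -0.14 ± 0.16 (SE; adjusted p = 0.57). In the 0 h controls PLAUR averaged 7.69 ± 0.30 on day 11 and 9.20 ± 0.28 on day 4 (SD, n = 5 each; difference -1.51, adjusted p = 7.6e-08).

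At 24 h PLAUR was 2.25 ± 0.16 (SE) above 0 h on day 11 (adjusted p = 2.8e-11). On day 4 it was at -0.54 ± 0.16 (SE) against 0 h, which just missed the threshold (adjusted p = 0.052). It passed with replicate numbers as a block (adjusted p = 0.031), with array medians subtracted (0.045), without the dimmest 30% of probe sets (0.040), with a variance trend and robust moderation (0.046), with array quality weights (0.021) and where each gene was the mean of its probe sets (0.049). That difference passed when any 1 of 8 arrays was left out. On day 11 these were replicates 2 and 4 of 0 h (adjusted p = 0.039 and 0.044), 1 of 4 h (0.048) and 1 and 2 of 24 h (0.032 and 0.043). On day 4 they were replicates 2 of 0 h (0.025) and 1 and 5 of 24 h (0.022 and 0.045). The response at 24 h differed between the days by 2.79 ± 0.23 (SE; adjusted p = 1.7e-09). From 4 to 24 h PLAUR was at -0.31 ± 0.16 (SE) on day 11 (adjusted p = 0.20) and fell by 1.72 ± 0.16 (SE) on day 4 (adjusted p = 2.8e-08). The day 11 value was -0.45 and passed when day 11, 24 h replicate 1 was left out (adjusted p = 0.045).

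Urokinase itself, PLAU (281408), the serine protease that turns plasminogen into plasmin, moved in opposite directions on days 11 and 4 at 24 h. Its day 11 signals were 7.55, 8.12, 7.61, 8.06 and 7.78 at 0 h, 9.18, 8.34, 8.61, 9.05 and 8.21 at 4 h, and 9.26, 9.28, 9.22, 9.77 and 9.09 at 24 h. No array taken after PGF2α was as low as any 0 h array of that day. Its day 4 signals were 9.32, 9.20, 8.67, 9.58 and 8.84 at 0 h, 9.97, 9.86, 9.67, 9.33 and 9.83 at 4 h, and 8.74, 8.25, 8.65, 8.001 and 8.68 at 24 h. The 24 h arrays of day 4 lay below all 4 h arrays and overlapped the 0 h arrays.

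PLAU rose by 0.85 ± 0.19 (SE) at 4 h (adjusted p = 0.0019) and by 1.50 ± 0.19 (SE), or 2.83-fold, at 24 h on day 11 (adjusted p = 4.6e-07). At 4 h on day 4 it was higher by 0.61 ± 0.19 (SE), which missed the threshold (adjusted p = 0.071) and passed when replicate 4 of day 4, 0 h (adjusted p = 0.038) or of day 4, 4 h (adjusted p = 0.036) was dropped. The response at 4 h did not pass the test for a difference between the days (0.24 ± 0.27 SE; adjusted p = 0.82). PLAU fell at 24 h on day 4, by 0.66 ± 0.19 (SE; adjusted p = 0.041). That call did not hold if day 4, 0 h replicate 1 (adjusted p = 0.11), 2 (0.071) or 4 (0.14) was dropped, nor if day 4, 24 h replicate 2 (0.12) or 4 (0.18) was. It was also lost in a fit to the arrays of that comparison alone (adjusted p = 0.095). The response at 24 h differed between the days by 2.16 ± 0.27 (SE; adjusted p = 9.2e-07).

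At 0 h PLAU was lower on day 11 than on day 4, at 7.82 ± 0.26 and 9.12 ± 0.37 (SD, n = 5 each; difference -1.30, adjusted p = 5.0e-06). It was still lower on day 11 at 4 h (difference -1.05, adjusted p = 9.7e-05). At 24 h the order had turned, with 9.33 ± 0.26 on day 11 and 8.46 ± 0.32 on day 4 (SD, n = 5 each; difference 0.86, adjusted p = 0.00068). From 4 to 24 h PLAU rose by 0.65 ± 0.19 (SE) on day 11 (adjusted p = 0.013) and fell by 1.27 ± 0.19 (SE) on day 4 (adjusted p = 3.9e-05). The rise on day 11 was lost without day 11, 24 h replicate 4 or day 11, 4 h replicate 5 (adjusted p = 0.053 for each).

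**Figure D2:**
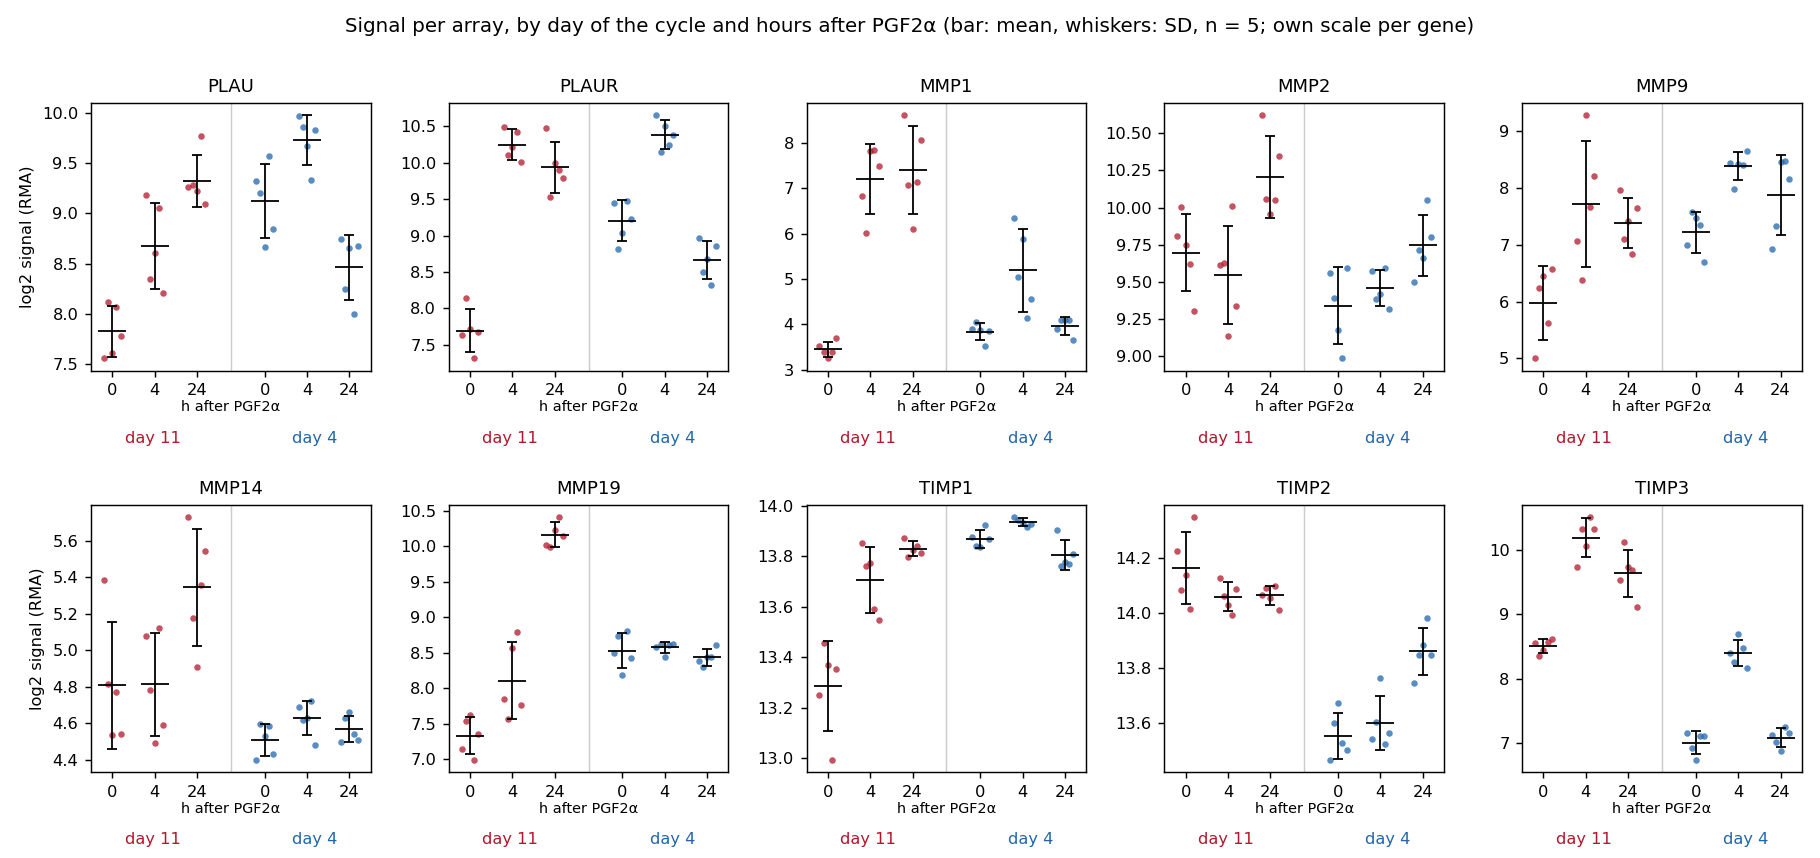
Log2 signal of the 10 genes in each of the 30 arrays, by hours after PGF2α on day 11 (red) and day 4 (blue), with group mean and SD; each panel has its own scale. PLAUR and TIMP3 are above 0 h in all 4 h arrays of both days. The day 11, 24 h arrays of PLAU, MMP1 and MMP19 lie above all day 4, 24 h arrays.

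MMP1 (281308), the interstitial collagenase that cuts fibrillar collagen, had the largest rise among the 10 genes on day 11. Its signals there were 3.52, 3.40, 3.25, 3.38 and 3.69 at 0 h, 6.84, 6.02, 7.81, 7.85 and 7.50 at 4 h, and 8.61, 7.06, 6.11, 7.15 and 8.06 at 24 h. Every array taken after PGF2α was above 6, and every 0 h array was below the lower quartile of all signals. On day 4 they were 3.90, 4.05, 3.88, 3.52 and 3.86 at 0 h, 6.34, 5.05, 5.89, 4.13 and 4.55 at 4 h, and 3.90, 4.11, 4.09, 4.10 and 3.65 at 24 h. The 4 h arrays of day 4 were spread over more than 2 log2 units, and their lowest value lay just above the highest 0 h value.

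MMP1 rose by 3.76 ± 0.38 (SE) at 4 h and by 3.95 ± 0.38 (SE) at 24 h on day 11 (adjusted p = 2.7e-08 and 3.1e-09). Because the 0 h signals were dim, the true size of these rises is uncertain. At 4 h on day 4 MMP1 rose by 1.35 ± 0.38 (SE; adjusted p = 0.036). This call was lost without day 4, 4 h replicate 1 (adjusted p = 0.16), 2 (0.053) or 3 (0.13), or day 4, 0 h replicate 1 (0.063), 3 (0.070), 4 (0.093) or 5 (0.071). MMP1 stood at 3.97 ± 0.20 at 24 h on day 4 (SD, n = 5), with a difference of 0.13 from 0 h (adjusted p = 0.93).

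The MMP1 response was larger on day 11 at 4 h by 2.41 ± 0.54 (SE; adjusted p = 0.019) and at 24 h by 3.82 ± 0.54 (SE; adjusted p = 4.5e-06). MMP1 was higher on day 11 than on day 4 by 2.01 at 4 h (adjusted p = 0.00014) and by 3.43 at 24 h (adjusted p = 2.9e-08). At 0 h the difference was -0.39 (adjusted p = 0.47), and it passed in a fit to the arrays of that comparison alone (adjusted p = 0.020). Between 4 and 24 h MMP1 was at 0.19 ± 0.38 on day 11 (SE; adjusted p = 0.79). On day 4 it fell by 1.22 ± 0.38 (SE; adjusted p = 0.027), a difference that no longer passed if day 4, 4 h replicate 1 (adjusted p = 0.11) or 3 (0.081), or day 4, 24 h replicate 5 (0.058), was dropped.

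MMP9 and MMP2 are gelatinases, which cut denatured collagen and basement membrane collagen. MMP9 (282871), which leukocytes also make, rose on day 11 by 1.74 ± 0.38 (SE) at 4 h (adjusted p = 0.0015) and by 1.42 ± 0.38 (SE) at 24 h (adjusted p = 0.0050). Its signals on day 11 were 5.00, 6.23, 6.44, 5.63 and 6.57 at 0 h, 7.06, 6.38, 9.28, 7.66 and 8.22 at 4 h, and 7.96, 7.10, 7.41, 6.84 and 7.64 at 24 h. The 4 h arrays varied widely, with replicate 3 highest and replicate 2 within the range of the 0 h arrays. On day 4 they were 6.99, 7.58, 7.48, 7.35 and 6.70 at 0 h, 8.44, 7.97, 8.43, 8.40 and 8.65 at 4 h, and 6.92, 7.34, 8.47, 8.47 and 8.15 at 24 h. All 4 h arrays of day 4 lay above all 0 h arrays.

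The difference of MMP9 at 4 h on day 4, 1.16 ± 0.38 (SE), missed the threshold of the fit with a spread shared by all groups (adjusted p = 0.090). Within-group SDs of MMP9 were 1.11 at 4 h on day 11, and 0.25 at 4 h and 0.36 at 0 h on day 4. In a fit to the 10 arrays of the day 4 comparison MMP9 passed (adjusted p = 0.0036), and it also passed without day 11, 4 h replicate 3 (adjusted p = 0.039). Its difference at 24 h on day 4 was 0.65 (adjusted p = 0.42). MMP9 was lower on day 11 than on day 4 at 0 h, at 5.98 ± 0.66 and 7.22 ± 0.36 (SD, n = 5 each; difference -1.25, adjusted p = 0.012), which just missed the threshold when day 11, 0 h replicate 1 was dropped (adjusted p = 0.0503). Its responses did not pass the test for a difference between the days (0.59 at 4 h, adjusted p = 0.76, and 0.77 at 24 h, adjusted p = 0.37). At 4 h it was at -0.66 on day 11 against day 4 (adjusted p = 0.20), and without day 11, 4 h replicate 3 the difference was -1.05 (adjusted p = 0.022).

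MMP2 (282872), made mainly by stromal cells, rose between 4 and 24 h on day 11. Its signals at 24 h on day 11 were 10.62, 10.06, 9.96, 10.05 and 10.35, against 9.81, 10.01, 9.75, 9.62 and 9.30 at 0 h, with overlap between the groups. The rise was 0.51 ± 0.15 (SE; adjusted p = 0.011). From 4 to 24 h MMP2 rose on day 11 by 0.66 ± 0.15 (SE; adjusted p = 0.0017). In the same comparison 7 of 8 fibroblast markers rose, with a median of 0.54, where 16.2% of all genes rose, and their part in the rises of MMP2 and MMP14 was not tested. At 4 h it was at -0.15 on day 11 and 0.12 on day 4 against 0 h (adjusted p = 0.57 and 0.87). On day 4 the 24 h difference was 0.41 ± 0.15 (SE; adjusted p = 0.13), and the responses at 24 h did not pass a test between the days (0.10 ± 0.22 SE; adjusted p = 0.81). MMP2 was higher on day 11 than on day 4 at 24 h by 0.46 (adjusted p = 0.019), which did not pass if the first replicate of day 11, 24 h (adjusted p = 0.079) or of day 4, 24 h (adjusted p = 0.061) was dropped.

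MMP14 (281915), the membrane-anchored enzyme that activates the MMP2 precursor together with TIMP2, was dim on this array. Its brightest probe set ranged from 4.91 to 5.73 at 24 h and from 4.54 to 5.39 at 0 h on day 11. It rose by 0.53 ± 0.14 between 4 and 24 h on day 11 (SE; adjusted p = 0.0063), beside the fibroblast markers given for MMP2. In a fit to the arrays of that comparison alone it just missed the threshold (adjusted p = 0.05003). Against 0 h it rose by 0.54 ± 0.14 (SE) at 24 h (adjusted p = 0.0045) and was at 0.01 at 4 h (adjusted p = 0.99). A second probe set rose by 0.72 ± 0.12 (SE) at 24 h on day 11 (adjusted p = 4.6e-05), with 4.45 to 4.90 at 24 h and 3.66 to 4.17 at 0 h. The third, with a mean of 3.27, was at -0.06 (adjusted p = 0.84). The 24 h response was larger on day 11 by 0.96 ± 0.18 (SE) in the second probe set (adjusted p = 0.00015). In the brightest the difference was 0.48 ± 0.20 (SE; adjusted p = 0.095), and it passed without day 11, 0 h replicate 1 (adjusted p = 0.012) or day 11, 24 h replicate 3 (adjusted p = 0.031). No probe set of MMP14 passed at 4 or 24 h on day 4, where the differences lay between -0.25 and 0.14.

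MMP19 (533203), an enzyme of basement membrane and other matrix proteins that lies outside the collagenase and gelatinase groups, rose mainly between 4 and 24 h on day 11. On day 11 its signals were 7.15, 7.54, 7.62, 6.99 and 7.36 at 0 h, 7.85, 7.56, 8.56, 8.80 and 7.76 at 4 h, and 10.02, 9.99, 10.23, 10.42 and 10.15 at 24 h. The 24 h arrays stood clear of all other groups of the study, while at 4 h replicate 2 lay within the range of the 0 h arrays and replicates 3 and 4 were the highest. On day 4 all 15 arrays lay between 8.18 and 8.80.

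MMP19 rose by 0.77 ± 0.17 (SE) at 4 h (adjusted p = 0.0015) and by 2.83 ± 0.17 (SE), or 7.12-fold, at 24 h on day 11 (adjusted p = 5.7e-13). The 4 h rise just missed the threshold in a fit to the arrays of that comparison alone (adjusted p = 0.051). The rise from 4 to 24 h was 2.06 ± 0.17 (SE; adjusted p = 6.2e-10). On day 4 the differences were 0.05 at 4 h and -0.10 at 24 h (adjusted p = 0.97 and 0.87). The response at 24 h differed between the days by 2.93 ± 0.24 (SE; adjusted p = 1.2e-09), and at 4 h by 0.73 ± 0.24 (SE; adjusted p = 0.16). MMP19 was lower on day 11 than on day 4 at 0 h, at 7.33 ± 0.26 and 8.53 ± 0.25 (SD, n = 5 each; adjusted p = 2.7e-06), and higher at 24 h, at 10.16 ± 0.17 and 8.43 ± 0.12 (SD, n = 5 each; adjusted p = 3.9e-09). At 4 h it was lower on day 11 by a difference of -0.47 (adjusted p = 0.034). That call was lost without day 11, 4 h replicate 1 (adjusted p = 0.092), 2 (0.13) or 5 (0.10), and without day 4, 4 h replicate 1 (0.053), 2 (0.064), 4 (0.060) or 5 (0.063). It was also lost in a fit to the arrays of that comparison alone (adjusted p = 0.12). With the mean of both probe sets the difference was -0.11 (adjusted p = 0.45). A second MMP19 probe set had a mean of 2.55, was among the dimmest of the array and passed in neither comparison with 0 h on day 11 (0.02 at 4 h and -0.08 at 24 h; adjusted p = 0.90 and 0.59). At 4 h it went against the brighter probe set, being higher on day 11 than on day 4 by 0.25 (adjusted p = 0.032), and this did not pass when any 1 of 5 arrays was dropped (adjusted p = 0.061 to 0.12).

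Of the 3 TIMPs, TIMP3 (282094), which is bound to the matrix and also inhibits ADAM proteases, rose at 4 h on both days. On day 11 its signals were 8.55, 8.35, 8.44, 8.56 and 8.61 at 0 h, 9.73, 10.32, 10.05, 10.51 and 10.32 at 4 h, and 9.53, 10.12, 9.74, 9.68 and 9.11 at 24 h, all of them after PGF2α above those at 0 h. On day 4 they were 7.16, 6.92, 6.74, 7.11 and 7.11 at 0 h, 8.39, 8.25, 8.70, 8.47 and 8.17 at 4 h, and 7.13, 7.02, 6.88, 7.26 and 7.16 at 24 h. The 4 h arrays lay above all others of that day, and the 24 h arrays overlapped the 0 h arrays.

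TIMP3 rose by 1.69 ± 0.14 (SE), or 3.22-fold, at 4 h on day 11 (adjusted p = 1.3e-09) and by 1.39 ± 0.14 (SE), or 2.62-fold, at 4 h on day 4 (adjusted p = 2.3e-07). The difference between these responses, 0.30 ± 0.20 (SE; 95% interval -0.12 to 0.72), did not pass (adjusted p = 0.64). At 24 h TIMP3 was still up by 1.13 ± 0.14 (SE) on day 11 (adjusted p = 4.4e-07) and was at 0.08 on day 4 (adjusted p = 0.88), a difference of 1.06 ± 0.20 (SE; adjusted p = 0.00029). From 4 to 24 h it fell by 0.55 on day 11 (adjusted p = 0.0050) and by 1.31 on day 4 (adjusted p = 3.8e-07). The fall on day 11 missed the threshold in a fit to the arrays of that comparison alone (adjusted p = 0.062). TIMP3 was higher on day 11 than on day 4 at each time, by 1.49 at 0 h, 1.79 at 4 h and 2.55 at 24 h (adjusted p = 1.2e-08, 6.6e-10 and 1.6e-13).

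TIMP1 (282092), a secreted inhibitor of most matrix metalloproteinases, had signals near the top of the range of the array. On day 11 they were 13.25, 13.46, 13.37, 12.99 and 13.35 at 0 h, 13.85, 13.76, 13.77, 13.59 and 13.55 at 4 h, and 13.87, 13.80, 13.82, 13.84 and 13.81 at 24 h. The 0 h arrays of day 11 were the lowest of the study, and all 10 arrays taken after PGF2α lay above them. On day 4 all 15 arrays lay between 13.76 and 13.96. TIMP1 rose by 0.42 ± 0.07 (SE) at 4 h (adjusted p = 9.6e-05) and by 0.55 ± 0.07 (SE) at 24 h on day 11 (adjusted p = 7.4e-07). On day 4 the differences were 0.07 and -0.06 (adjusted p = 0.82 and 0.75).

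The TIMP1 response was larger on day 11 at 24 h by 0.61 ± 0.10 (SE; adjusted p = 4.5e-05). Its day 4 signals lay close to the highest signal in the data, 14.35, and whether a rise could still be measured there was not tested. At 4 h the difference was 0.36 ± 0.10 (SE; adjusted p = 0.084), and it passed without day 11, 0 h replicate 2 (adjusted p = 0.046). TIMP1 was lower on day 11 than on day 4 at 0 h by a difference of -0.59 (adjusted p = 3.7e-07) and at 4 h by -0.23 (adjusted p = 0.014). The 4 h difference missed the threshold when day 11, 4 h replicate 5 was dropped (adjusted p = 0.051) and in a fit to the arrays of that comparison alone (adjusted p = 0.062). At 24 h the days differed by 0.03 ± 0.07 (SE; adjusted p = 0.83). A second TIMP1 probe set gave 0.47 at 4 h and 0.64 at 24 h on day 11 (adjusted p = 0.00015 and 4.7e-07).

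TIMP2 (282093), which both inhibits matrix metalloproteinases and takes part in the activation of MMP2, was the member that did not rise in the day 11 gland. It has 3 probe sets, which gave differences of different size. On day 11 the brightest was at 14.23, 14.09, 14.14, 14.02 and 14.35 at 0 h, 14.13, 14.06, 14.03, 13.99 and 14.09 at 4 h, and 14.07, 14.09, 14.05, 14.10 and 14.01 at 24 h. On day 4 it was at 13.46, 13.60, 13.67, 13.53 and 13.50 at 0 h, 13.54, 13.60, 13.76, 13.52 and 13.56 at 4 h, and 13.74, 13.85, 13.88, 13.98 and 13.85 at 24 h. The day 11 arrays all lay above the day 4 arrays, and among the day 4 arrays those of 24 h were all above those of 0 h. The highest of these values, 14.35, was also the highest signal in the data, and no value tells how much the signal could still rise there.

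At 0 h TIMP2 was higher on day 11 than on day 4 by 0.61 ± 0.07 in the brightest probe set, by 0.86 ± 0.12 in the second and by 1.49 ± 0.23 in the third (SE; adjusted p = 8.9e-08, 2.5e-06 and 1.0e-05). TIMP2 rose at 24 h on day 4 by 0.31, 0.54 and 0.86 in the same order (adjusted p = 0.0084, 0.010 and 0.026). In a fit to the arrays of that comparison alone these calls did not hold (adjusted p = 0.071, 0.095 and 0.053). The second also did not hold when day 4, 24 h replicate 4 was dropped (adjusted p = 0.057). The third did not pass if day 4, 0 h replicate 1 (adjusted p = 0.073), 4 (0.059) or 5 (0.061) was dropped, nor if day 4, 24 h replicate 2 (0.066), 3 (0.066) or 4 (0.12) was. On day 11 the 24 h values were -0.10, -0.41 and -0.68 (adjusted p = 0.31, 0.010 and 0.026), so that the second and the third fell. The values at 4 h on day 11 were -0.10, -0.27 and -0.70 (adjusted p = 0.33, 0.13 and 0.035). That of the third did not pass if day 11, 4 h replicate 1 (adjusted p = 0.13), 3 (0.054) or 4 (0.11) was dropped. Nor did it pass without day 11, 0 h replicate 1 (adjusted p = 0.13), 2 (0.057) or 5 (0.061). It was also lost in a fit to the arrays of that comparison alone (adjusted p = 0.17) and with array quality weights (-0.49, adjusted p = 0.14). The 24 h fall of the third did not pass if day 11, 0 h replicate 1 (adjusted p = 0.11), day 11, 24 h replicate 3 (0.067) or day 11, 24 h replicate 5 (0.060) was dropped.

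The 24 h response of TIMP2 was lower on day 11 than on day 4 in all 3 probe sets, with differences of -0.41 ± 0.10, -0.95 ± 0.17 and -1.54 ± 0.33 (SE; adjusted p = 0.0020, 0.00014 and 0.00085). At 24 h the days differed by 0.20 in the brightest probe set (adjusted p = 0.019), which did not pass if day 4, 24 h replicate 1 was dropped (adjusted p = 0.064). The others were at -0.08 and -0.05 there (adjusted p = 0.66 and 0.91). With the mean of the 3 probe sets in place of the brightest, TIMP2 fell on day 11 at 4 h (-0.36, adjusted p = 0.043) and at 24 h (-0.40, adjusted p = 0.015), and at 24 h the days differed by 0.02 (adjusted p = 0.91).

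**Figure D3:**
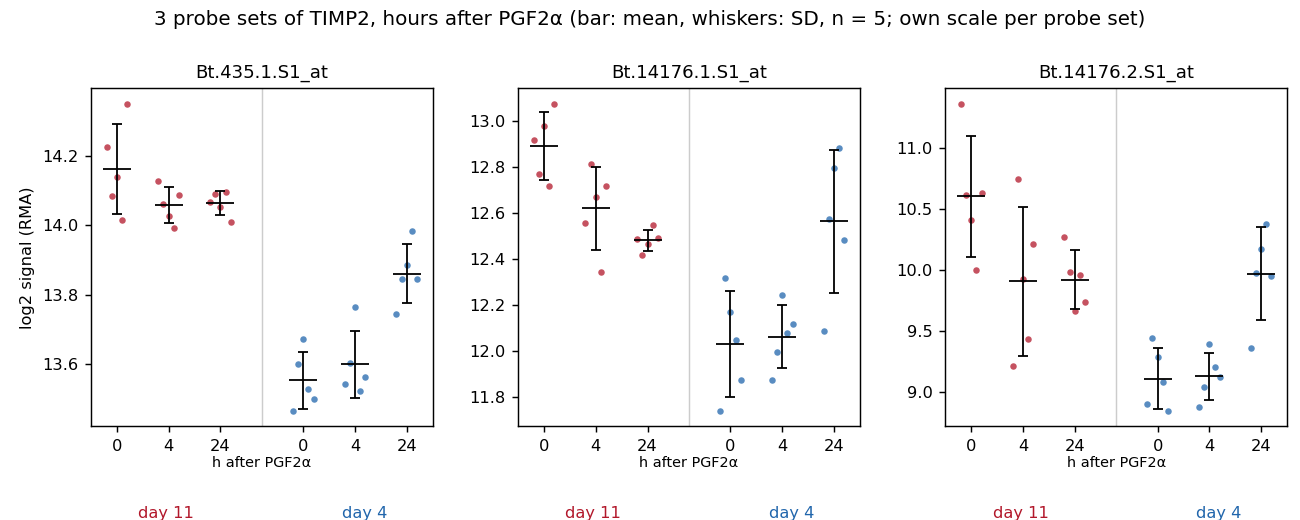
Log2 signal of the 3 TIMP2 probe sets in each array, by hours after PGF2α on day 11 (red) and day 4 (blue), with group mean and SD; each panel has its own scale. In all 3 the 24 h mean of day 4 lies above its 0 h mean, by 0.31, 0.54 and 0.86 from left to right.

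Set side by side at 0 h, day 11 glands had less signal than day 4 glands for PLAUR, PLAU, MMP9, MMP19 and TIMP1, and more for TIMP2 and TIMP3. These were 5 lower and 2 higher of 10 genes, where 26.5% of all genes were lower and 17.9% higher. MMP1, MMP2 and MMP14 did not pass there; MMP2 was at 0.36 (adjusted p = 0.073) and passed without day 11, 0 h replicate 5 (adjusted p = 0.025) or day 4, 0 h replicate 5 (adjusted p = 0.046). At 4 h MMP1, TIMP2 and TIMP3 were higher and PLAU, MMP19 and TIMP1 lower on day 11, where 16.1% of all genes were higher and 26.7% lower. At 24 h 8 of the 10 were higher and 0 lower on day 11, where 18.8% of all genes were higher and 27.4% lower; MMP9 was at -0.48 (adjusted p = 0.37) and TIMP1 at 0.03. Without day 4, 24 h replicate 1 the count was 6, since TIMP2 and MMP2 did not pass, and with quantile normalization or the mean of each gene's probe sets it was 7, without TIMP2.

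Between 4 and 24 h, on day 11 PLAU, MMP2, MMP14 and MMP19 rose and TIMP3 fell, 4 and 1 of 10 genes, where 16.2% of all genes rose and 14.3% fell. On day 4 TIMP2 rose and PLAUR, PLAU, MMP1 and TIMP3 fell, 1 and 4 of 10, where 10.2% rose and 9.84% fell. The response to PGF2α was larger on day 11 at 4 h for 2 of the 10 genes, PLAUR and MMP1, where 0.939% of all genes had a larger and 0.459% a smaller response. At 24 h it was larger for 6 (PLAUR, PLAU, MMP1, MMP19, TIMP1 and TIMP3) and smaller for TIMP2, where 14.8% of all genes had a larger and 15.0% a smaller response.

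The order of the 6 groups differed by gene. PLAUR was lowest at 0 h on day 11, followed by day 4 at 24 h and day 4 at 0 h, then day 11 at 24 h, day 11 at 4 h and day 4 at 4 h. The values of day 4 at 24 h and at 0 h overlapped, as did those of day 11 at 24 h, day 11 at 4 h and day 4 at 4 h, each with the next. For TIMP3 the lowest groups were day 4 at 0 h and at 24 h, which overlapped, then day 4 at 4 h and day 11 at 0 h, which overlapped, and then day 11 at 24 h and at 4 h, which also overlapped. For MMP1 the 3 lowest groups, day 11 at 0 h, day 4 at 0 h and day 4 at 24 h, overlapped each with the next and lay below the other 3, day 4 at 4 h and day 11 at 4 and 24 h, which also overlapped. For MMP19 the 24 h group of day 11 was highest, and the other 5 groups overlapped each with the next.

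Of a list of 58 other genes of matrix breakdown, 34 were measured, among them further metalloproteinases, ADAM proteases, cathepsins, plasminogen activators and inhibitors. At 4 h on day 11, 5 of the 34 rose and 0 fell, where 10.1% of all genes rose and 13.1% fell, with a median of 0.09 against -0.04 over all genes. They were led by TFPI2, an inhibitor of plasmin and other serine proteases in the matrix, by 1.71 (adjusted p = 3.1e-07), the lysosomal protease CTSL by 1.03 (adjusted p = 0.031) and PLAT, the tissue plasminogen activator, by 0.89 (adjusted p = 9.2e-05). On day 4 at 4 h, 2 rose, TFPI2 by 0.80 (adjusted p = 0.016) and the metalloproteinase ADAM19 by 0.43 (adjusted p = 0.012), where 3.29% of all genes rose, with a median of 0.11 against -0.02.

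By 24 h on day 11, 13 of the 34 rose and 1 fell, where 17.9% of all genes rose and 20.0% fell, with a median of 0.19 against -0.01 over all genes. PLAT rose by 1.58 (adjusted p = 3.1e-09), A2M, a broad inhibitor of proteases, by 1.48 (adjusted p = 7.2e-11) and CTSK, a cathepsin that cuts collagen, by 1.42 (adjusted p = 1.1e-10). On day 4 at 24 h, 1 rose, CTSD, by 0.40 (adjusted p = 0.014), and 1 fell, TFPI2, by 0.69 (adjusted p = 0.038), where 3.03% of all genes rose and 4.73% fell. The 24 h response was larger on day 11 for 8 of the 34 and smaller for 1, where 14.8% of all genes had a larger and 15.0% a smaller response, led by TFPI2 (1.70), A2M (1.49) and CTSK (1.25; adjusted p = 4.0e-05, 1.0e-07 and 1.3e-06). For the 4 h response 0 of the 34 passed that limma test, and 7 had an unadjusted p under 0.05. At 0 h 8 were higher and 7 lower on day 11, which is near the shares of all genes, 17.9% higher and 26.5% lower. SERPINE2, an inhibitor of urokinase and thrombin, was higher by 1.34, CTSS by 1.10 and CTSD by 1.01 (adjusted p = 7.5e-09, 0.00037 and 1.5e-08).

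Between the days at 4 h 11 of the 34 were higher on day 11 and 5 lower, where 16.1% of all genes were higher and 26.7% lower. SPOCK2, a matrix proteoglycan, was higher by 1.35 and CTSS by 0.99, and PCOLCE, which speeds the trimming of procollagen, was at -1.04 (adjusted p = 0.00080, 0.0013 and 6.2e-06). At 24 h 16 were higher and 3 lower, where 18.8% of all genes were higher and 27.4% lower, led by CTSB at 1.87, CTSS at 1.55 and CTSK at 1.45 (adjusted p = 6.6e-12, 3.6e-06 and 7.1e-11). From 4 to 24 h 9 rose and 3 fell on day 11, where 16.2% of all genes rose and 14.3% fell, led by CTSK at 1.46, CTSB at 1.21 and A2M at 0.85 (adjusted p = 2.1e-10, 4.2e-08 and 2.1e-06). On day 4 over the same hours, where 10.2% of all genes rose and 9.84% fell, CTSD rose by 0.54, and TFPI2 fell by 1.48 and the aggrecanase ADAMTS4 by 1.30 (adjusted p = 0.00034, 7.6e-06 and 0.0023).

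Of 21 measured collagens and matrix glycoproteins, the substrates of these enzymes, 1 rose and 1 fell at 4 h on day 11, and 5 rose and 3 fell at 24 h, with medians of -0.21 and 0.03. COL1A1, COL1A2, COL3A1, DCN and LUM are in this list and also among the fibroblast markers, so the lists are not independent. Over all genes 10.1% rose and 13.1% fell at 4 h and 17.9% rose and 20.0% fell at 24 h. On day 4, 0 of the 21 passed at 4 h or at 24 h by limma, with 2 and 5 at an unadjusted p under 0.05. Of all genes 3.29% rose and 1.99% fell at 4 h on day 4, and 3.03% rose and 4.73% fell at 24 h. The median differences there were 0.09 and 0.04. Between the days 5 of the 21 were higher and 8 lower on day 11 at 0 h (median -0.27), 1 higher and 15 lower at 4 h (median -0.52), and 4 higher and 8 lower at 24 h (median -0.29). Over all genes 26.5% were lower on day 11 at 0 h, 26.7% at 4 h and 27.4% at 24 h, and 17.9%, 16.1% and 18.8% were higher. Between 4 and 24 h 7 of the 21 rose and 1 fell on day 11 (median 0.28), where 16.2% of all genes rose and 14.3% fell. Over the same hours 0 rose and 3 fell on day 4, where 10.2% of all genes rose and 9.84% fell. For the response, 0 of the 21 passed the limma test between the days at 4 h, with 8 at an unadjusted p under 0.05. At 24 h the response was larger on day 11 for 2 and smaller for 2. Over all genes it was larger for 0.939% and smaller for 0.459% at 4 h, and larger for 14.8% and smaller for 15.0% at 24 h.

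Markers of the cell types of the gland are set against the shares of all genes on day 11, of which 10.1% rose and 13.1% fell at 4 h, and 17.9% rose and 20.0% fell at 24 h. The lists are short, and a count of 1 or 2 lies near those shares. Of 8 luteal cell markers 2 fell at 4 h on day 11 and 7 fell at 24 h, with medians of -0.20 and -0.86. Their mean log2 signal per array was 12.52 to 12.67 at 0 h, 12.17 to 12.39 at 4 h and 11.05 to 11.68 at 24 h. Of 7 measured neutrophil markers 5 rose at 4 h and 3 at 24 h on day 11, with mean signals of 4.89 to 5.30 at 0 h, 5.85 to 7.39 at 4 h and 6.15 to 7.20 at 24 h. MPO, ELANE and CXCR1 were below the lower quartile of all signals at 0 h on day 11, and ELANE in every group. At 0, 4 and 24 h the group means of these markers were 5.10, 6.34 and 6.65 on day 11 and 5.38, 6.27 and 5.69 on day 4. MMP9 averaged 5.98, 7.72 and 7.39 on day 11 and 7.22, 8.38 and 7.87 on day 4. Among the day 11, 4 h arrays MMP9 was highest in replicate 3, whose neutrophil mean was 5.91. The neutrophil mean was highest in replicate 1, where MMP9 was 7.06 and which stood apart in the EF1A controls. The part of neutrophils in MMP9 was not tested.

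Of 7 measured macrophage and monocyte markers 1 rose at 4 h and 4 at 24 h on day 11, with mean signals of 7.52 to 8.13 at 0 h, 7.73 to 9.26 at 4 h and 8.89 to 9.59 at 24 h. ITGAM was below the lower quartile in every group. Of 9 measured T and NK cell markers 0 passed at 4 h by limma, with 3 at an unadjusted p under 0.05, and 7 rose at 24 h on day 11, with mean signals of 4.84 to 5.08 at 0 h, 4.83 to 5.84 at 4 h and 5.71 to 6.20 at 24 h. Fibroblast markers, all 8 measured, had 0 higher and 1 lower at 4 h and 3 higher and 0 lower at 24 h on day 11, with mean signals of 10.32 to 10.77 at 0 h, 10.05 to 10.70 at 4 h and 10.99 to 11.35 at 24 h. Of 10 endothelial markers 4 rose and 1 fell at 4 h and 1 rose and 4 fell at 24 h on day 11.

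On day 4 at 24 h, where 3.03% of all genes rose and 4.73% fell, 2 of 8 luteal markers were higher, and limma called 0 of 7 neutrophil, 0 of 7 macrophage, 0 of 9 T and NK cell, 0 of 8 fibroblast and 0 of 10 endothelial markers, with 0, 3, 1, 2 and 0 of them at an unadjusted p under 0.05. On day 4 at 4 h, where 3.29% of all genes rose and 1.99% fell, 2 of 7 neutrophil markers, 1 of 7 macrophage markers and 3 of 10 endothelial markers rose, and 1 luteal and 1 endothelial marker fell. Neutrophil mean signals on day 4 were 5.26 to 5.59 at 0 h, 5.88 to 6.86 at 4 h and 5.24 to 6.20 at 24 h. Of 4 measured markers of dividing cells limma called 0 at 4 and 24 h on day 11, with 0 and 1 at an unadjusted p under 0.05, and all 4 fell at 24 h on day 4. Their mean signals on day 4 were 9.52 to 9.86 at 0 h and 9.59, 7.37, 8.13, 5.86 and 8.73 at 24 h. Replicate 1 of 24 h thus lay within the range of the 0 h arrays. Of 8 pericyte and smooth muscle markers 3 rose at 4 h and 1 at 24 h on day 11, and 1 at each time on day 4. Of 6 granulosa and theca markers 1 rose and 3 fell at 24 h on day 11 and 1 rose at 24 h on day 4. Of 3 B and plasma cell markers 1 rose at each time on day 11, and limma called 0 of 3 erythrocyte markers in all 4 comparisons with 0 h, also at an unadjusted p under 0.05. The erythrocyte markers HBA and ALAS2 were below the lower quartile of all signals in every group, so a change could hardly have been seen in them. On day 4 the T and NK cell markers CD3G and GZMB, the B cell markers CD79A and MS4A1 and the granulosa marker FSHR were below it at each time.

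These markers also differed between the days. At 0 h all 4 markers of dividing cells were lower on day 11 than on day 4 (median -3.07), and 4 of 8 fibroblast markers were lower and 2 higher (median -0.30). At the same time 5 of 8 luteal markers were higher and 1 lower (median 0.29), as were 6 and 1 of 10 endothelial markers (median 0.47), and 4 of 7 macrophage markers (median 0.99) and 5 of 9 T and NK cell markers (median 0.63) were higher and 0 lower. Of 7 neutrophil markers 1 was higher and 2 were lower (median -0.29). At 4 h all 4 markers of dividing cells (median -3.13) and 6 of 8 fibroblast markers (median -0.59) were lower on day 11, and 5 of 7 macrophage and 6 of 9 T and NK cell markers were higher. At 24 h 7 of 8 luteal markers (median -0.79) were lower on day 11, and 6 of 7 macrophage (median 2.17) and 7 of 9 T and NK cell markers (median 1.22) were higher. The shares of all genes in these comparisons are those given for the members. The part of these cells in the changes of the proteases and inhibitors was not tested.

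**Figure D4:**
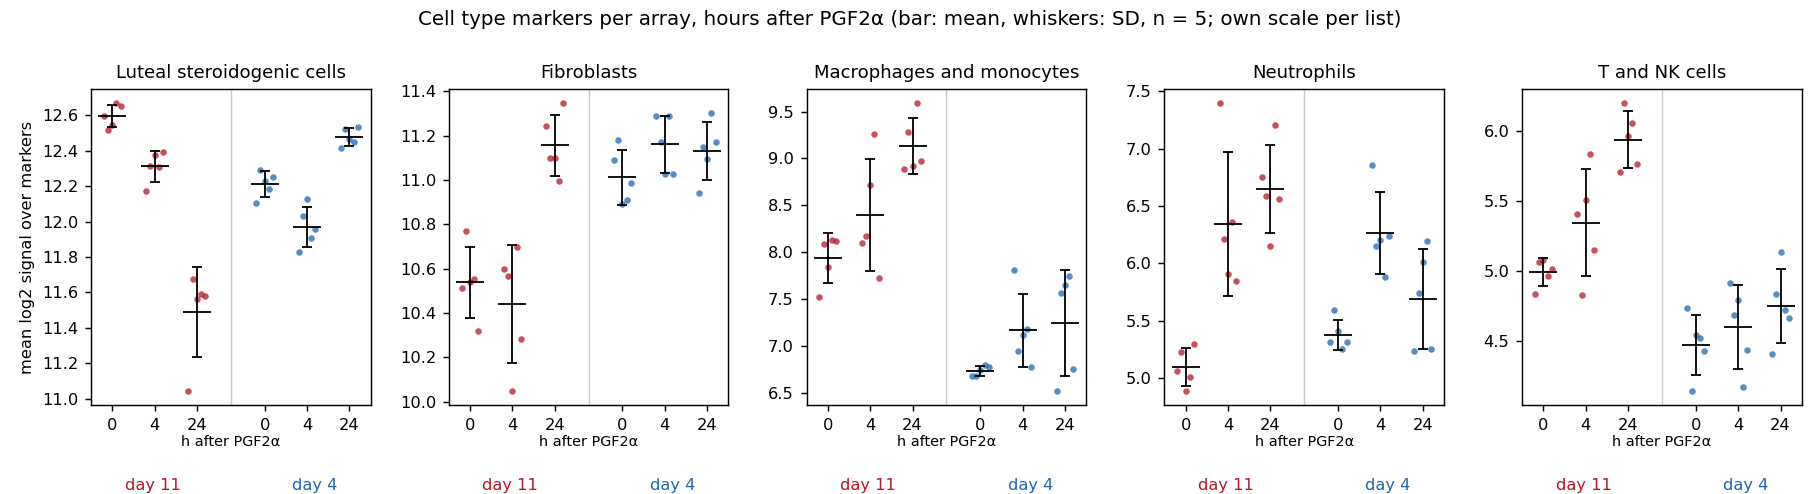
Mean log2 signal over the measured markers of 5 cell types in each array, by hours after PGF2α on day 11 (red) and day 4 (blue), with group mean and SD; each panel has its own scale. At 24 h on day 11 the luteal mean is below 11.7 in all 5 arrays and the macrophage mean above 8.8.

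The genes whose signal most resembled a member over the 30 arrays are given as a description; all points share the 6 groups. For PLAUR they were DPH3, CD9 and NFKBIB (Pearson r = 0.96, 0.93 and 0.92, and 0.56, 0.62 and 0.63 after each group's mean was subtracted). For MMP1 they were ATF3, MARCKSL1 and LRP12 (r = 0.93, 0.92 and 0.92, and 0.45, 0.38 and 0.56 within groups). For TIMP2 they were FGF1, SCARB1 and PBXIP1 (r = 0.94 for each, and 0.62, 0.86 and 0.31 within groups). TIMP3 was nearest to SLC3A2, BTG1 and GABARAPL1 (r = 0.92 for each, and 0.29, 0.23 and 0.21 within groups).

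TIMP1 was nearest to TXN, XCL1 and SLC16A3 (r = 0.94, 0.90 and 0.89, and 0.45, 0.61 and 0.46 within groups). MMP19 was nearest to TOX, SCAND1 and RENBP (r = 0.93, 0.91 and 0.90, and 0.41, 0.16 and 0.47 within groups) and PLAU to PTPN2, SERPINB8 and C23H6orf141 (r = 0.90, 0.87 and 0.87, and 0.52, 0.42 and 0.62 within groups). MMP9 was nearest to RGS1, BZW2 and SERPINA11 (r = 0.85, 0.77 and 0.76, and 0.64, 0.44 and 0.38 within groups). MMP2 and MMP14 were both near TSPAN11 (r = 0.86 for each, and 0.70 and 0.69 within groups); the others were CACNB3 and ANGPTL2 for MMP2 (0.86 and 0.85, and 0.64 and 0.79 within groups) and RHOG and SELPLG for MMP14 (0.84 for each, and 0.59 and 0.60 within groups). Among the members themselves, the pairs with the highest r within groups were TIMP1 with PLAUR (0.59), MMP2 with MMP14 (0.56) and PLAU with PLAUR (0.49).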

How the data were processed

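RNA from 30 glands, 1 array each, was measured, and the authors deposited log2 signals made with RMA, per the submitters' processing notes. RMA subtracts background, normalizes between arrays and summarises probes, and it compresses differences at the dim and bright ends. Its version and the arrays normalized together are not given in the sources used here. Values were used as deposited, and the number of arrays limits the precision. Of 24128 probe sets 112 controls were left out. Symbols came from the platform annotation, which gave 13292 probe sets 1 symbol, 86 several and 10638 none.

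A model of group means was fitted to all arrays in limma 3.58.1 (R 4.3.3), with no block. It had 24 residual degrees of freedom, and moderation brought them to 28.2. P values of each of 11 contrasts were adjusted over 24016 probe sets. The test was checked on simulated data. The 10 genes, all named, and the lists were chosen with earlier results of these data known. Of each list up to 3 called genes with the largest change were named per contrast, and per member the 3 genes with the highest r. The 40 alternatives include 30 that leave out 1 array and 1 chosen after seeing the data. The latter left out day 11, 4 h replicate 1 and day 4, 24 h replicate 1, but not day 4, 24 h replicate 4. Same-numbered arrays of 2 groups correlated at -0.20 to 0.26 in their deviations from group means, over 0.1 in 16 of 30 pairs. All 5 pairs passed 0.1 in 1 of 6 comparisons, 4 h against 0 h on day 4 (0.15 to 0.21), where the block changed no call of a member. The labels do not say what the numbers share, and the main fit took them to pair animals in no comparison. Arrays with different numbers were not correlated, so 0.1 has no reference value.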

Additional observations from a re-analysis of the deposited data

Results flagged for a closer look

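In 2 of 96 sets of 5 arrays (16 probe sets in 6 groups) 1 array lay far from the rest; chance alone gives about 1 in 20. MMP19 was at 8.44 in day 4, 4 h replicate 3, with the other 4 arrays between 8.58 and 8.63. PLAU was at 9.77 in day 11, 24 h replicate 4, with the others between 9.09 and 9.28.

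The response to PGF2α differed between the days by the interaction term of the limma fit for 13 of 32 tests of a probe set. Several probe sets of a gene are counted apart here. By gene it was 2 of 10 at 4 h and 7 of 10 at 24 h. Of all genes, 0.939% had a larger and 0.459% a smaller response on day 11 at 4 h. At 24 h these shares were 14.8% and 15.0%. At 4 h these were MMP1 (2.41) and PLAUR (1.37), each larger on day 11. At 24 h the larger responses on day 11 were those of MMP1 (3.82), MMP19 (2.93), PLAUR (2.79), PLAU (2.16), TIMP3 (1.06), MMP14 in its second probe set (0.96) and both probe sets of TIMP1 (0.65 and 0.61). The response of TIMP2 was smaller on day 11 in its 3 probe sets (-0.41, -0.95 and -1.54).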

How the results depend on the processing

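Over 40 alternatives and 176 differences (16 probe sets in 11 contrasts), 0 called differences changed sign; 79 of the values fell short of the threshold, 39 newly passed it, and 85 that passed in neither setting changed sign. With array quality weights 5 genes were called at 4 h and 4 at 24 h on day 4, against 3 and 2. In fits to the arrays of a contrast alone 0 were called at 24 h on day 4, and 3 from 4 to 24 h on day 11 against 5; fewer arrays then estimate the spread. Leaving out 1 array at a time gave 1 to 3 genes at 24 h on day 4, with 1 if replicate 1 or 4 of day 4, 0 h, or replicate 2 or 4 of day 4, 24 h, was dropped. With replicate numbers as a block 3 genes were called at 4 h and 3 at 24 h on day 4, and 7 and 9 on day 11; PLAUR then passed at 24 h on day 4 (-0.54, adjusted p = 0.031), and no other call of a probe set changed. Over all probe sets, 1018 were called at 4 h on day 4, against 1981 with array weights and 608 without day 4, 4 h replicate 1. At 24 h on day 4, 1240 were called, against 2356 with array weights, 147 in the fit to those arrays and 357 to 2071 without 1 array, and at 4 h on day 11, 4409 against 2520 in the fit to those arrays. The 4 h response differed between the days in 264, against 157 without day 4, 4 h replicate 2. No detection calls were used, so dim signals (MMP1 at 0 h, MMP14) may lie at background.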
